A study of Mus musculus with 32 samples.

Results

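Nfe2l2, the gene of the transcription factor Nrf2, and 9 of its antioxidant and glutathione target genes were followed in bulk RNA sequencing of mouse tumours treated with carbon ions or photons. The 10 genes (Nfe2l2, Hmox1, Nqo1, Gclc, Gclm, Txnrd1, Srxn1, Slc7a11, Gpx2 and Gsta4) were taken by symbol from the 55103 rows of the deposited count table, and all 10 passed the filter on low counts that left 20474 genes for testing. The study holds 32 libraries of KPC36 tumour tissue, a malignant mouse line of a pancreatic ductal adenocarcinoma model, in 4 groups of 8. These are the tumours treated with carbon ions (carbon_treated), the untreated tumours of the same arm (carbon_ctrl), the tumours treated with photons (photon_treated) and the untreated tumours of the photon arm (photon_ctrl). The labels used here give no dose, mouse strain, age or KPC36 genotype, and they do not say which of the sampling days 4 and 7 of the design text a library belongs to, so the share of each day in a group is unknown. Nothing in the labels states that the libraries of a group came from different animals, so p-values measure the spread between these libraries.

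Nrf2 is held at a low level by Keap1, which delivers it to a ubiquitin ligase for degradation; oxidants and electrophiles modify Keap1, and Nrf2 then enters the nucleus, pairs with small Maf proteins and binds antioxidant response elements (AREs) near its targets. Because this control acts mainly on the protein, the Nfe2l2 transcript and Nrf2 activity need not move together. The targets make and use glutathione and thioredoxin, break down haem and detoxify reactive carbonyls and quinones, and in pancreatic cancer the programme is known as a means by which tumour cells hold down reactive oxygen species.

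Promoter stretches of 5 of these genes are shown for the matches they hold to motifs of Nrf2 and of other stress factors, which differ between the genes. RefSeq promoter sequences (GRCm38.p6, 250 bases before to 50 after a start) were present in the table used here for 7 of the 10 genes, in 9 promoters. The ARE core was searched as TGACNNNGC and as TGAGNNNGC, the AP-1 site as TGANTCA and the C/EBP-ATF response element that Atf4 binds as TGATGNAA, each on both strands. In the lines that follow the matched letters are in capitals, read 5′ to 3′ on the strand of the gene.
Nfe2l2: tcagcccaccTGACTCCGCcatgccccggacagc
Gclm: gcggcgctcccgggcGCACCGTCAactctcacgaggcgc
Txnrd1: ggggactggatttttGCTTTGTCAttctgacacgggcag
Srxn1: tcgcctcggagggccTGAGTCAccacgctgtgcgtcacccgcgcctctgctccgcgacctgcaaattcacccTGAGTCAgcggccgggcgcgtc
Slc7a11: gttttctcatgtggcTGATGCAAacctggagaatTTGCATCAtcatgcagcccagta
The first 3 show TGACNNNGC, on the gene's strand in Nfe2l2 (chr2:75704880-75704913, minus strand) and on the opposite strand in Gclm (chr3:122245408-122245446, plus strand) and Txnrd1 (chr10:82859099-82859137, plus strand, upstream of 1 of its 3 listed starts). The Srxn1 stretch (chr2:152105407-152105500, plus strand) holds 2 AP-1 sites, and the second of them is also part of a TGAGNNNGC match, the only overlap between the motifs searched. The Slc7a11 stretch (chr3:50443638-50443694, minus strand) holds 2 matches to the C/EBP-ATF element, 1 on each strand.

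Matches of these lengths are common, so their presence is a description and not a binding site. TGACNNNGC was found in 4 of the 7 genes (Nfe2l2, Gclm, Txnrd1 and, after its start, Srxn1) and in 13.99% of the 27025 genes of the promoter table. TGAGNNNGC was found in Srxn1 and Slc7a11 and in 19.8% of all genes, TGANTCA in Srxn1 and 8.97% of all genes, and TGATGNAA in Slc7a11 and 4.51% of all genes. The windows of Nqo1 and Gpx2 held none of these letters.

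In GRCm38 with GENCODE M21 the 10 genes lie on 6 chromosomes, and the values are counts over their exons. Nfe2l2 spans chr2:75675513-75704641 on the minus strand, and Srxn1 lies on the same chromosome at chr2:152105516-152111376 (plus). Hmox1 (chr8:75093621-75100589, plus) and Nqo1 (chr8:107388225-107403206, minus) share chromosome 8. Gclc (chr9:77754535-77794485, plus) and Gsta4 (chr9:78182774-78209349, plus) lie close to each other on chromosome 9. On chromosome 3 lie Gclm (chr3:122245557-122270732, plus) and Slc7a11 (chr3:49892526-50443614, minus), whose annotated span is the longest of the 10. Txnrd1 spans chr10:82833951-82897712 (plus) and Gpx2 chr12:76792333-76795554 (minus), overlapping the gene Fntb on the other strand.

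The genes were first compared for their level, as CPM, the counts scaled to equal library totals by TMM, divided by the length of all exons of the gene in GENCODE M21 to allow comparison between genes. Gsta4, a glutathione transferase for lipid peroxidation products such as 4-hydroxynonenal, had the highest level per kilobase, at 71.1 ± 24.1 CPM per kb (SD, n = 32). Gclc, the catalytic subunit of the rate-limiting enzyme of glutathione synthesis, followed at 38.7 ± 5.80 CPM per kb and Nfe2l2 at 31.97 ± 3.73 CPM per kb. Txnrd1, the cytosolic thioredoxin reductase, lay at 24.7 ± 2.96 CPM per kb, and Hmox1, which opens the haem ring, at 22.7 ± 11.3 CPM per kb. The ranges of mean ± SD of these last 2 overlapped, as did those of Gclc and Nfe2l2. The genes were measured in the same libraries, and their differences within libraries were not tested.

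Gclm, the modifier subunit of the same glutathione-synthesis enzyme, reached 15.5 ± 3.001 CPM per kb and Srxn1, which repairs overoxidised peroxiredoxins, 12.3 ± 1.89 CPM per kb. Gpx2, the epithelial glutathione peroxidase, was at 6.79 ± 3.80 CPM per kb and Slc7a11, the cystine importer, at 5.21 ± 1.14 CPM per kb; these neighbours overlapped. Nqo1, the quinone reductase that is often used as the readout of Nrf2, was the lowest of the 10 at 2.14 ± 0.815 CPM per kb, with 27 to 328 counts per library. The order rests on exon lengths that pool all transcripts of a gene, which lowers the figure of genes with long alternative ends such as Slc7a11, whose pooled exons span 13922 bases.

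The genes also differed in how much they varied between tumours. Over all 32 libraries the highest value exceeded the lowest by 1.69-fold for Txnrd1, 1.83-fold for Gclc and 1.98-fold for Nfe2l2, and by 5.58-fold for Hmox1 and 10.8-fold for Gpx2. The ratio was 2.12 for Srxn1, 2.46 for Slc7a11, 2.47 for Gclm, 3.37 for Nqo1 and 4.15 for Gsta4. Within the groups the coefficients of variation of Hmox1 and Gpx2 were 35.5% to 70.8%. Those of Nqo1 reached 42.9%, and Gsta4 had 49.4% after carbon ions, above Hmox1 (38.4%) and Gpx2 (44.7%) in that group. The depth of the libraries ran from 13891863 to 71645903 estimated counts. Apart from Nqo1, every member had at least 137 counts in each library.

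**Figure D1:**
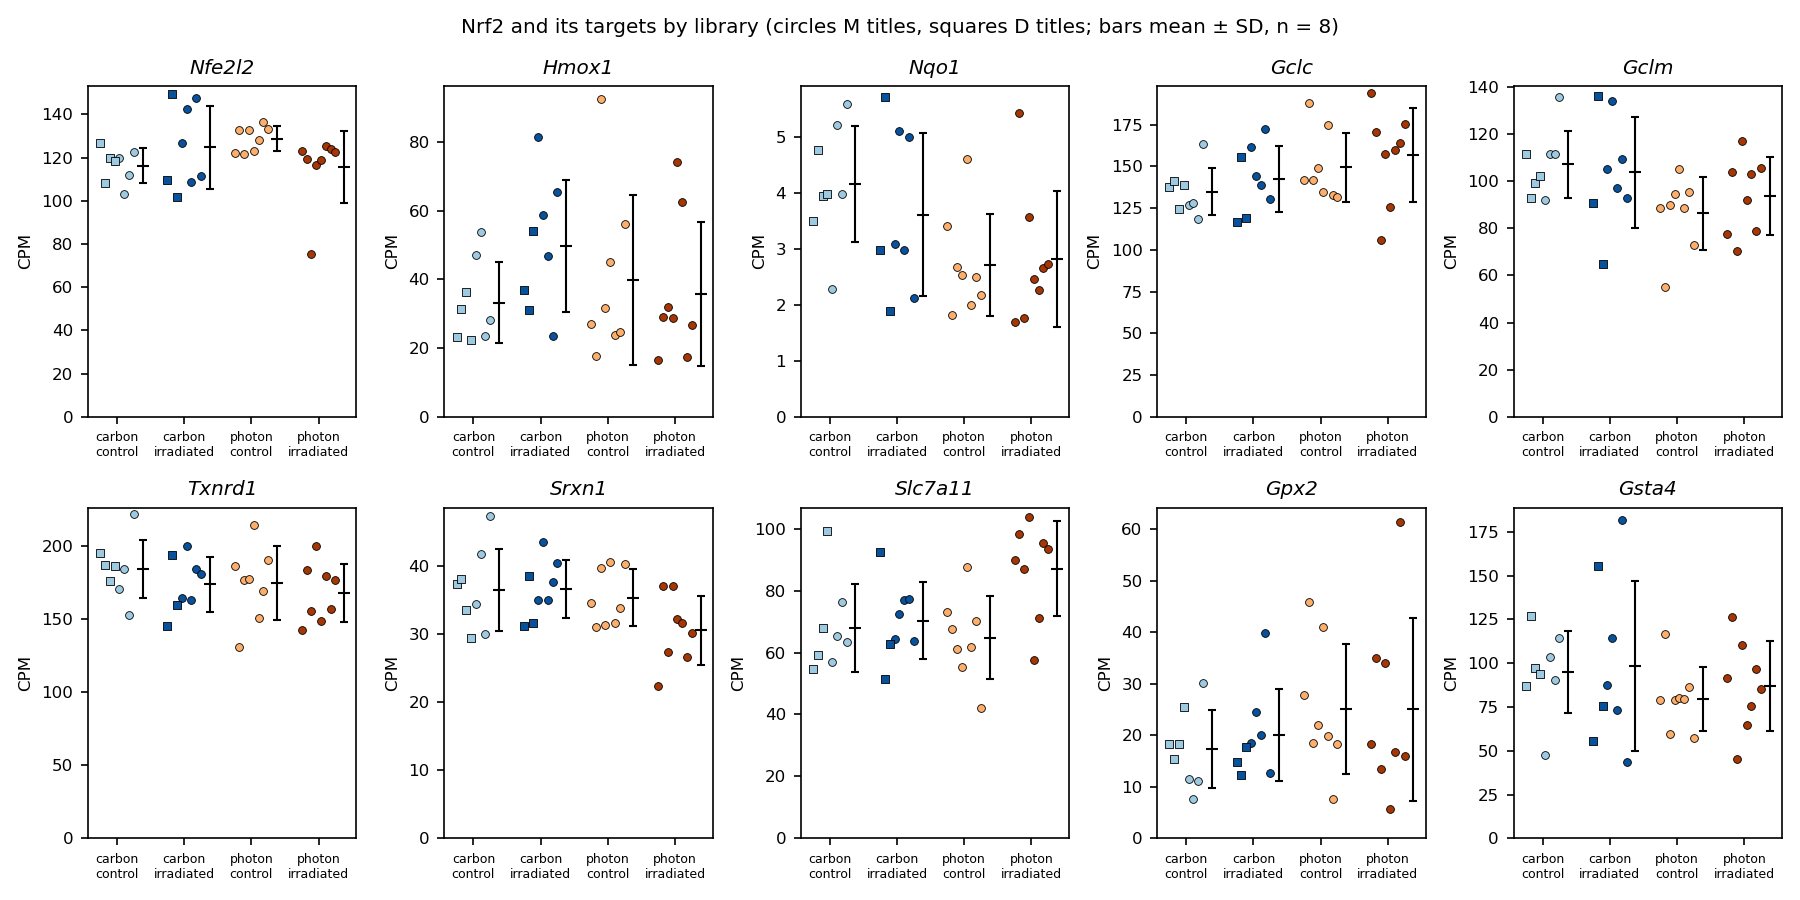
CPM (y axes, from 0) of Nfe2l2 and its 9 targets in each of 32 tumour libraries, by group (x axes); circles are libraries with M titles, squares libraries with D titles, and bars the mean ± SD of 8 libraries. The groups overlap in every panel, and 1 photon-irradiated library lies at 75.4 CPM of Nfe2l2, below the 31 others.

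The first comparison asked whether carbon ions changed these genes relative to the untreated tumours of that arm. None of the 10 passed the threshold by edgeR's quasi-likelihood test with Benjamini-Hochberg adjustment over all 20474 genes, where the share of all genes called was 0.0%. None had an unadjusted p under 0.05 either, against 5.75% of all genes, and DESeq2 called none. A positive log2 fold change was found for 7 of 10 (6 under upper-quartile scaling), with a median of 0.05 beside 0.01 over all genes. In 10 of 10 genes the groups overlapped, while 0.0293% of all genes had groups that did not. The 95% intervals of the log2 fold change lay within a 2-fold change in either direction for 9 genes, all but Hmox1, and within a 1.5-fold change for 7.

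Hmox1 had the largest difference of the 10 after carbon ions. Its lowest, median and highest values were 22.3, 29.7 and 53.9 CPM in the carbon-ion controls and 23.6, 50.5 and 81.4 CPM in the irradiated tumours. The control median was exceeded in 7 of 8 irradiated libraries, but the ranges overlapped between 23.6 and 53.9 CPM. The log2 fold change was 0.58 ± 0.32 (SE), with an interval from -0.07 to 1.24, an unadjusted p of 0.0787 and an edgeR adjusted p of 0.921. Among libraries with M titles, whose meaning is not stated in the labels, the value was 0.54 ± 0.46 (SE), and among those with D titles 0.52 ± 0.24 (edgeR adjusted p 0.734 and 0.999).

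Nfe2l2 itself ran from 103 over a median of 119.1 to 127 CPM in the carbon-ion controls and from 102 over 119.1 to 149 CPM after carbon ions. The medians were therefore alike and the upper end of the irradiated group was wider. Its log2 fold change was 0.10 with an interval from -0.07 to 0.28. Txnrd1, with an interval from -0.26 to 0.10, Srxn1, from -0.20 to 0.21, and Gclc, from -0.13 to 0.29, were bounded about as tightly. The intervals of Gclm and Slc7a11 were -0.31 to 0.22 and -0.23 to 0.32. Those of Gsta4, Nqo1 and Gpx2 were wider, at -0.41 to 0.52, -0.70 to 0.30 and -0.51 to 0.95. For 5 of the 10 genes the log2 fold change was positive among M-titled and negative among D-titled libraries, and none passed in either. The values were 0.64 and -0.37 for Gpx2, 0.21 and -0.08 for Gsta4, 0.18 and -0.05 for Gclc, 0.14 and -0.02 for Slc7a11, and 0.01 and -0.03 for Srxn1.

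Photons were compared with the untreated tumours of the photon arm in the same way. No member passed in edgeR, where 3.81% of all genes did. An unadjusted p under 0.05 was found for 2 of 10 and for 21.5% of all genes. DESeq2 called 1 of the 10 and 1524 of all genes. Under RLE or upper-quartile scaling, by DESeq2 and without photon-irradiated replicate 3, 1 of 10 had an unadjusted p under 0.05. The log2 fold change was positive for 5 of 10 (6 under RLE or upper-quartile scaling), with a median of 0.03 beside -0.00 over all genes. No member had groups without overlap (0.474% of all genes). All 10 intervals lay within a 2-fold change in either direction, and 6 within a 1.5-fold change. The 2 genes with an unadjusted p under 0.05 were Slc7a11, with a higher mean after photons, and Srxn1, with a lower one.

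Slc7a11 imports cystine in exchange for glutamate and so feeds glutathione synthesis; besides Nrf2 it answers to Atf4, the factor of the amino acid response. In the photon controls it ran from 42.2 over a median of 64.8 to 87.5 CPM, and after photons from 57.5 over 91.8 to 104 CPM. The control median was exceeded in 7 of 8 irradiated libraries and the highest control in 5 of 8. Means of 64.9 ± 13.3 and 87.1 ± 15.4 CPM (SD, n = 8) correspond to a fitted log2 fold change of 0.43 ± 0.13 (SE), with an interval from 0.15 to 0.70. The edgeR adjusted p was 0.0640, above the threshold, and the DESeq2 adjusted p was 0.0290, below it. Leaving out photon-irradiated replicate 5, which holds the lowest irradiated value, gave an edgeR adjusted p of 0.0271, and without photon control replicate 5, which holds the highest control value, it was 0.0457. It was 0.0473 without replicate 4 of the carbon-ion controls, which enter through the shared estimate of the spread. Over the 32 fits that each left out 1 library, the log2 fold change stayed between 0.35 and 0.50, and the edgeR adjusted p between 0.0271 and 0.149.

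The cystine importer was the only member for which the mean of both effects had an unadjusted p under 0.05, as had 14.3% of all genes. This mean was 0.24 ± 0.10 (SE) on the log2 scale, at an edgeR adjusted p of 0.228. No member passed in this contrast, in which 0.772% of all genes did, and DESeq2 called none. After carbon ions alone Slc7a11 had a log2 fold change of 0.05 ± 0.13 (SE). The carbon-ion controls ran from 54.8 over a median of 64.3 to 99.1 CPM, and the irradiated tumours of that arm from 51.6 over 68.5 to 92.5 CPM.

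Srxn1 had a median of 34.2 CPM in the photon controls, between 31.0 and 40.5 CPM, and of 30.8 CPM after photons, between 22.3 and 37.04 CPM. In 6 of 8 irradiated libraries it lay below the control median. The log2 fold change was -0.21 ± 0.10 (SE), with an unadjusted p of 0.0488 and an edgeR adjusted p of 0.229. The unadjusted p was 0.0659 in M-titled libraries alone and 0.111 without photon-irradiated replicate 3. In the other arm its medians were 35.9 CPM without treatment and 36.3 CPM after carbon ions.

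Nfe2l2 lay between 121.5 and 137 CPM in the photon controls, with a median of 131 CPM, and between 75.4 and 125 CPM after photons, with a median of 120.9 CPM. All 8 irradiated libraries were below the control median, although the ranges overlapped. The log2 fold change was -0.15 ± 0.09 (SE) at an edgeR adjusted p of 0.300. Without photon-irradiated replicate 3, the library at 75.4 CPM, the value was -0.08 with an edgeR adjusted p of 0.650. This library also had the smallest total of the 32 (13891863 estimated counts) and the lowest Gclc value (106 CPM). Without the same library 480 genes in place of 781 passed after photons. All 8 untreated libraries of the carbon-ion arm also lay below the photon control median of Nfe2l2. Against the photon controls their log2 fold change was -0.15 ± 0.09 (SE, edgeR adjusted p 0.314).

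The other targets showed smaller differences after photons relative to their spread. Hmox1 ran from 17.6 over 29.4 to 92.4 CPM in the controls and from 16.6 over 28.8 to 74.1 CPM after photons, with a log2 fold change of -0.16 and an interval from -0.81 to 0.49. Without photon control replicate 3, which holds the highest Hmox1 value of the study, it was 0.15. The sign of this difference therefore rested on 1 library. Gpx2 had medians of 21.0 CPM in the controls and 17.4 CPM after photons, and the irradiated libraries alone ran from 5.69 to 61.4 CPM. Its log2 fold change was -0.003, and from -0.33 to 0.18 when 1 library was left out. The log2 fold changes of Gclc, Gclm, Txnrd1, Gsta4 and Nqo1 were 0.07, 0.12, -0.06, 0.13 and 0.06, and the intervals of all 5 held 0. When 1 library was left out, Nqo1 ran from -0.14, without photon-irradiated replicate 2, to 0.22, Gclm from 0.04 to 0.17, Gsta4 from 0.03 to 0.23, Gclc from 0.03 to 0.14 and Txnrd1 from -0.11 to -0.01.

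**Figure D2:**
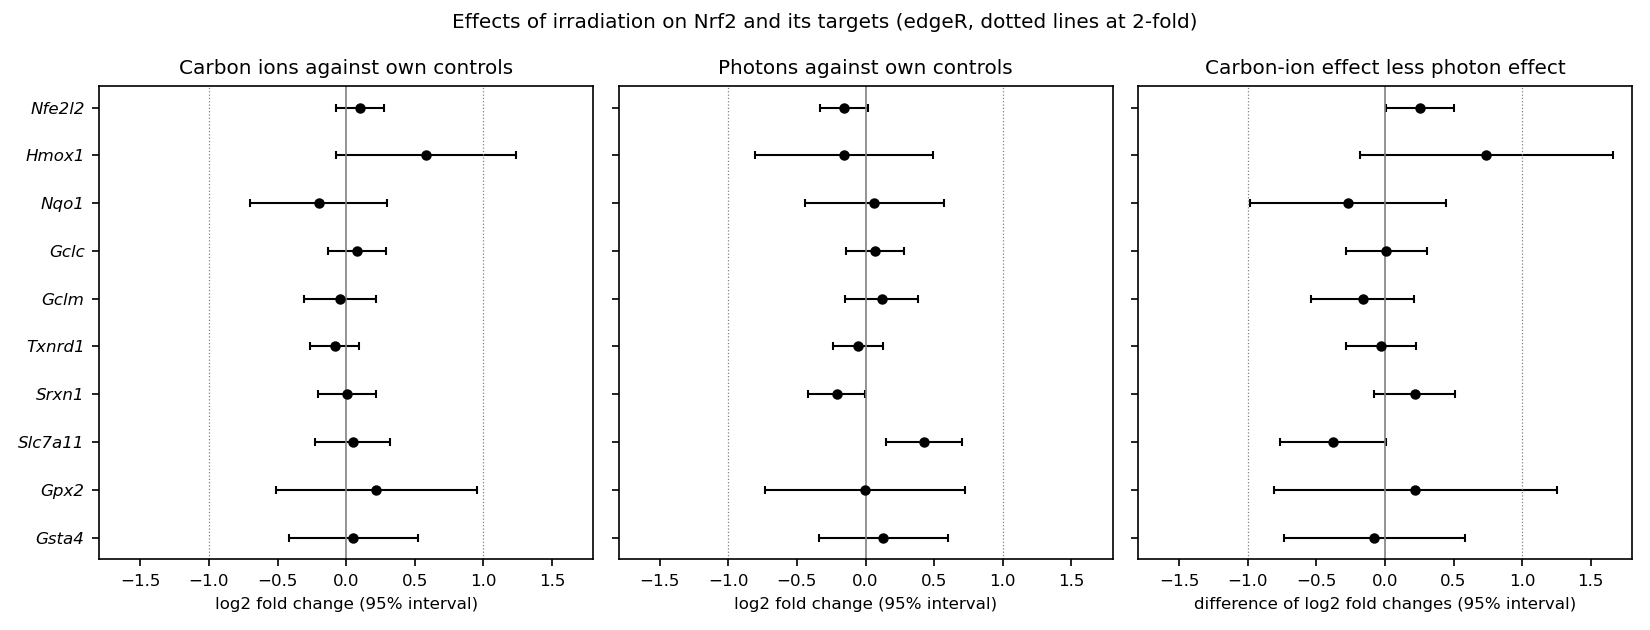
Log2 fold changes of the 10 genes (points) with 95% intervals (lines) in 3 panels, for carbon ions, photons and the carbon-ion effect less the photon effect; dotted lines mark a 2-fold change. The intervals of Slc7a11 (0.15 to 0.70) and Srxn1 after photons, and of Nfe2l2 for the difference, leave out 0, and none of these 3 had an edgeR adjusted p under 0.05.

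Whether the beams differed was tested as the carbon-ion effect less the photon effect. By edgeR no member passed, against 0.0781% of all genes, and 1 of 10, Nfe2l2, had an unadjusted p under 0.05, against 13.0%; DESeq2 called none. For Nfe2l2 the difference was 0.26 ± 0.12 (SE), with an interval from 0.01 to 0.50 and an adjusted p of 0.369, and without photon-irradiated replicate 3 it was 0.18 with an adjusted p of 0.531. Slc7a11 differed by -0.38 with an interval from -0.76 to 0.01, and Hmox1 by 0.74 with an interval from -0.18 to 1.66. Without photon control replicate 3 the difference of Hmox1 was 0.43. For 8 of the 10 genes the interval lay within 2-fold in either direction; for Hmox1 and Gpx2 a larger difference between the beams could not be told from none with these libraries.

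The untreated tumours of both arms were compared as the background of these effects. Titles with D occur only in the carbon-ion arm, in 4 of its 8 controls and 3 of its 8 irradiated libraries, so arm and title letter overlap in part. None of the 10 genes passed in edgeR or DESeq2, where edgeR called 9.14% of all genes, and 2 had an unadjusted p under 0.05, against 23.1%. Both were higher in the carbon-ion controls. Nqo1 ran from 2.28 over 3.98 to 5.59 CPM there and from 1.82 over 2.51 to 4.6003 CPM in the photon controls, a log2 fold change of 0.61 ± 0.25 (SE) and an edgeR adjusted p of 0.1202. Gclm ran from 91.9 over 107 to 136 CPM and from 55.1 over 89.3 to 105 CPM, a log2 fold change of 0.31 ± 0.13 (SE) and an adjusted p of 0.134. For Gclm all 8 carbon-ion controls were above the photon control median, and for Nqo1 7 of 8. No member had groups without overlap (1.31% of all genes).

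Between the irradiated groups, which differ in arm as well as beam, no member passed in edgeR or DESeq2, while edgeR called 5.08% of all genes. An unadjusted p under 0.05 was found for 2 of 10, against 25.2%, and every pair of groups overlapped (0.161% of all genes did not). Srxn1 was higher after carbon ions, with 8 of 8 libraries above the photon-irradiated median and a log2 fold change of 0.26 ± 0.10 (SE, edgeR adjusted p 0.114). Slc7a11 was lower after carbon ions, at -0.31 ± 0.13 (SE, edgeR adjusted p 0.147). This contrast uses the same irradiated libraries as the effects above and adds no independent evidence to them.

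The rest of the pathway was examined through 88 further genes in 8 lists, all of which were tested. After carbon ions 0 of 88 passed in edgeR and in DESeq2 (0.0% of all genes in edgeR), and 6 had an unadjusted p under 0.05, beside 5.75% of all genes. The smallest p belonged to Prdx5, a peroxiredoxin, at 83.2 CPM in the controls and 112 CPM after carbon ions, with 8 of 8 irradiated libraries above the control median, a log2 fold change of 0.43 ± 0.12 (SE) and an edgeR adjusted p of 0.394. The median log2 fold change of the 88 genes was 0.06, and over all genes tested it was 0.01. The difference between the beams passed for none of the 88 in edgeR or DESeq2 (0.0781% of all genes in edgeR), and 7 had an unadjusted p under 0.05, beside 13.0% of all genes. Of these the smallest p belonged to Gpx3, the secreted glutathione peroxidase, with a difference of 1.304 ± 0.44 (SE, edgeR adjusted p 0.198).

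After photons 3 of the 88 genes passed, a share of 3.41% near the 3.81% of all genes. All 3 rose, while 351 of the 781 genes called were higher: Mafk, a small Maf partner of Nrf2, from 35.2 to 44.7 CPM, Abcc3, an export pump for conjugates, from 102 to 140.1 CPM, and Txnip, the inhibitor of thioredoxin, from 217 to 290 CPM. On the log2 scale Mafk rose by 0.35 ± 0.09 (SE, edgeR adjusted p 0.0275), Abcc3 by 0.46 ± 0.13 (adjusted p 0.0339) and Txnip by 0.42 ± 0.12 (adjusted p 0.0434). For Mafk and Abcc3 8 of 8 irradiated libraries were above the control median, and for Txnip 7 of 8. After carbon ions the same genes had log2 fold changes of 0.14, 0.02 and 0.28, and none passed. The difference between the beams was -0.20, -0.44 and -0.14 for Mafk, Abcc3 and Txnip, with edgeR adjusted p values from 0.286 to 0.735. Txnip also passed for the mean of both effects, at 0.35 with an edgeR adjusted p of 0.0436, and was the only one of the 88 to do so; none of the 88 passed there for 21 of the 32 libraries when that library was left out. The count moved with single libraries, as did that of all genes: it was 0 without photon control replicate 1, 3 or 8 or photon-irradiated replicate 2 or 6, and 1 without photon control replicate 5 or 7 or photon-irradiated replicate 1, 5, 7 or 8. There were 6 without photon control replicate 2, when 1656 of all genes passed in place of 781, 5 without photon-irradiated replicate 3, when 480 of all genes passed, and 0 with no filter on low counts, when 431 of all genes passed. Keap1 had a log2 fold change of 0.03 after photons and -0.04 after carbon ions. Of the 12 Atf4 response genes, 0 were called after photons (3.81% of all genes) and 1 had an unadjusted p under 0.05 (21.5%) by edgeR. Their log2 fold change was positive for 9, with a median of 0.10.

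The untreated tumours of both arms differed in antioxidant genes other than the 10. Between them 13 of the 88 genes passed, a share of 14.8% beside the 9.14% of all genes, and 12 of the 13 were higher in the carbon-ion controls; among all genes called, 1050 of 1871 were higher. The median log2 fold change of the 88 was 0.14 and that of all genes -0.02. The lists were chosen with earlier results of these data known, so these shares are descriptions. By list, 3 of 13 detoxification genes, 3 of 19 glutathione genes, 2 of 14 thioredoxin genes, 2 of 8 haem and iron genes, 1 of 6 NADPH genes and 1 of 12 Nrf2 regulators were called higher, 1 glutathione gene (Gsta2, at 0.177 and 0.814 CPM) was called lower, and none was called among 4 superoxide and 12 Atf4 response genes. The count was 8 in M-titled libraries alone, where 973 of all genes passed in place of 1871, and 18 with only these groups in the fit, where 2219 passed. It was also 8 without carbon-ion control replicate 2, photon control replicate 6 or photon control replicate 3, and without the last 1178 of all genes passed.

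The 6 of these genes with the smallest p, all above the photon control median in 8 of 8 untreated libraries of the carbon-ion arm, came from 5 of the lists. G6pdx, which opens the NADPH-yielding pentose phosphate pathway, was at 73.6 CPM in the carbon-ion and 51.1 CPM in the photon controls, a log2 fold change of 0.53 ± 0.09 (SE) and an edgeR adjusted p of 0.000746. Prdx4, the peroxiredoxin of the endoplasmic reticulum, was at 41.0 and 26.1 CPM, and Slc48a1, a haem transporter, at 65.7 and 49.6 CPM, with log2 fold changes of 0.65 (adjusted p 0.00410) and 0.40 (adjusted p 0.00555). Ephx1, the microsomal epoxide hydrolase, was at 41.4 and 20.4 CPM, Blvrb, a biliverdin reductase, at 18.1 and 11.2 CPM, and Mgst1, a microsomal glutathione transferase, at 42.2 and 25.5 CPM. The log2 fold change of Ephx1 was 1.02 (adjusted p 0.00711), that of Blvrb 0.70 (adjusted p 0.0107) and that of Mgst1 0.72 (adjusted p 0.0133). Mafk, Abcc3 and Txnip were among the 13 as well, at 0.32, 0.39 and 0.39; the photon controls enter both this contrast and the photon effect, so the 2 results are not independent.

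Markers of the tumour's cell types moved in the same contrast. Of 8 epithelial markers 3 (Cdh1, Cldn4 and Cldn7) were called higher in the carbon-ion controls and 8 had a positive log2 fold change, and their summed level ran from 3051 to 5369 CPM there and from 2680 to 4378 CPM in the photon controls. Of 8 fibroblast markers 2 were called lower and none had a positive value, with sums of 6126 to 16488 and 12556 to 26794 CPM. Of 7 endothelial markers 1 was called lower, with sums of 159.8 to 324 and 236 to 453 CPM. No epithelial, fibroblast or endothelial marker was at 0 throughout a group, so stromal markers were present beside those of the labelled malignant cells, and the part of these markers in the difference of the pathway genes was not tested. In bulk tissue, fewer cells of a type and less RNA per cell cannot be told apart.

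Between the irradiated groups 7 of the 88 genes passed (7.95%, beside 5.08% of all genes), all higher after carbon ions, as were 726 of the 1041 genes called. They were Prdx4, Blvrb, Gpx4, Fth1, Gpx1, Gstt1 and Prdx2. Without photon-irradiated replicate 3 the count was 1, and that of all genes 108 in place of 1041. It was also 1 without carbon-ion-irradiated replicate 2 or 5 or photon-irradiated replicate 1, 2 without photon-irradiated replicate 7, 3 without replicate 7 of the carbon-ion-irradiated tumours, and 13 without their replicate 3. With only these groups in the fit it was 0. Of the cell type markers, 4 of 8 for macrophages, 3 of 6 tested for neutrophils and 1 of 8 for epithelium (Cldn7) were called higher after carbon ions than after photons, the epithelial ones with all 8 at a positive log2 fold change. The epithelial sums ran from 3014 to 5309.9 CPM after carbon ions and from 2396 to 4322 CPM after photons. The macrophage sums ran from 562 to 1043 and from 353 to 658 CPM, the neutrophil sums from 26.6 to 53.1 and from 15.3 to 35.5 CPM, and skeletal muscle sums had medians of 339 and 11.5 CPM. The part of these markers was not tested.

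**Figure D3:**
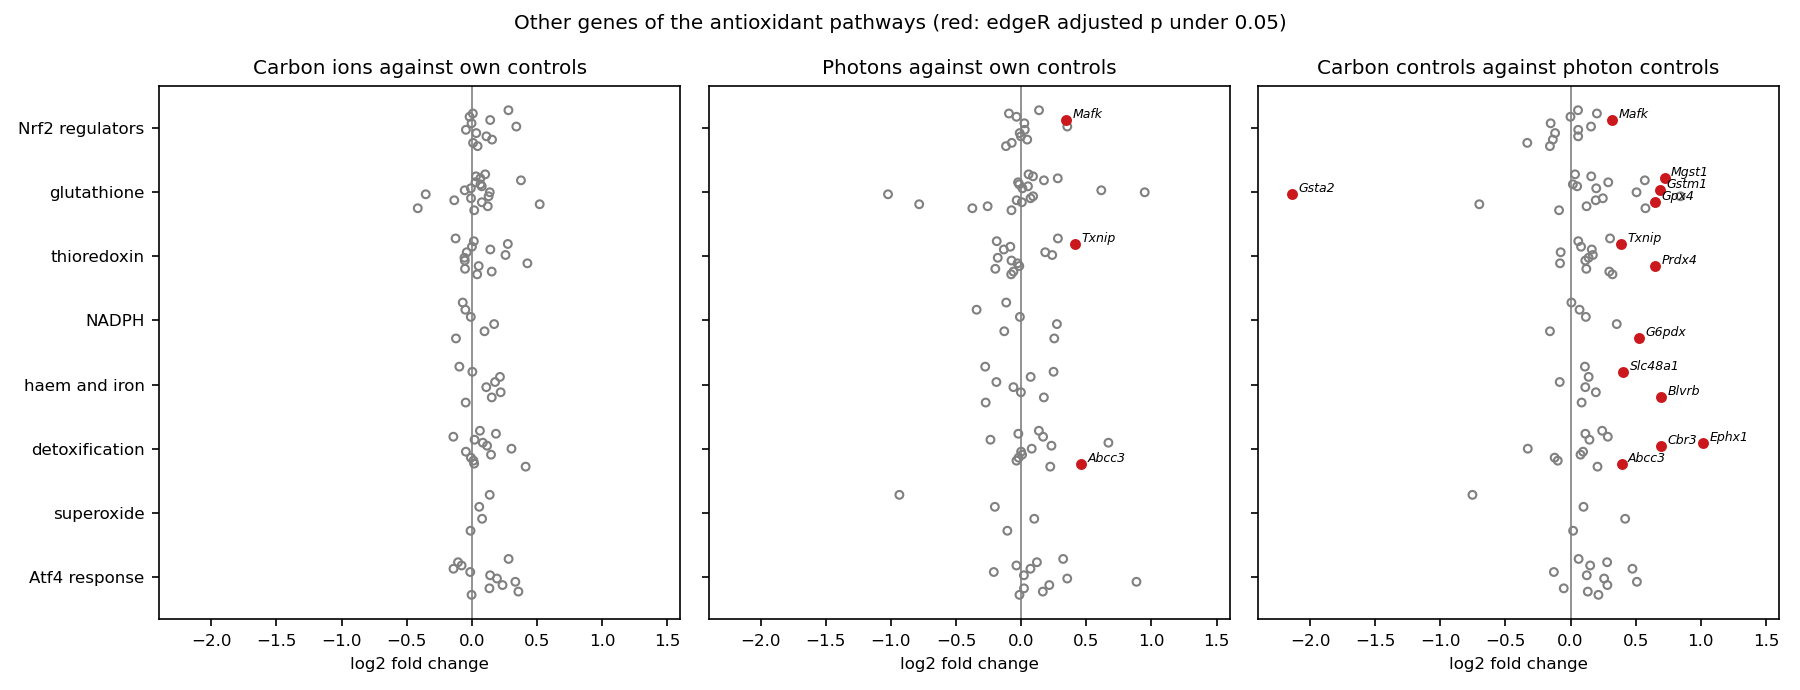
Log2 fold changes (x axes) of 88 further antioxidant genes by list (y axis) after carbon ions, after photons and between the controls of both arms; filled red points have an edgeR adjusted p under 0.05. No point is filled after carbon ions, 3 are after photons, and 13 between the controls, 12 of them to the right of 0.

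The photon comparison also moved with other cell types. After photons 3 of 6 tested neutrophil markers, 2 of 8 macrophage markers, 2 of 8 fibroblast markers and 2 of 7 endothelial markers were called lower and none of these higher, and 7 of 7 skeletal muscle markers had a negative log2 fold change without passing. Of 6 T cell markers 1, Cd8a, had a positive log2 fold change and was called higher, while Cd3d was called lower. The median log2 fold change of the 6 was -0.95. In the controls and after photons the means were low, at 0.592 and 0.144 CPM for Cd3d and 0.198 and 0.485 CPM for Cd8a. The sums ran from 24.0 to 61.9 CPM in the controls and from 15.3 to 35.5 CPM after photons for neutrophils, from 518 to 987 and from 353 to 658 CPM for macrophages, from 12556 to 26794 and from 9133 to 16919 CPM for fibroblasts, and from 236 to 453 and from 173 to 453 CPM for the endothelium. The summed muscle level of the untreated photon arm had a median of 650.01 CPM in a range of 6.81 to 1260.2 CPM, and that of the irradiated tumours a median of 11.5 CPM in a range of 4.11 to 354 CPM. The part of all these markers in the values of Slc7a11 and Srxn1 after photons was not tested.

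How the members varied together was described across the 32 libraries after the mean of each group had been taken off each gene's log2 CPM, so that differences between groups play no part. These are descriptions without a test; all points share the libraries and their scaling. Of the 45 pairs of members 36 had a positive Pearson correlation, with a median of 0.25, and the pairs ranged from -0.50 to 0.77. The list therefore did not vary as 1 unit.

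Nqo1, Gclm, Txnrd1 and Srxn1 formed the most closely linked set. Txnrd1 and Srxn1 had the highest correlation of all pairs, with Pearson's r of 0.77, Spearman's rho of 0.78 and r of 0.77 without the 2 libraries farthest from the median of Txnrd1. Nqo1 and Gclm followed with r of 0.75 and rho of 0.75, and Gclm and Txnrd1 with r of 0.70 and rho of 0.72. All 6 pairs among these 4 genes had r of at least 0.57, and each was positive in every one of the 4 groups. Of their promoter windows, those of Gclm, Txnrd1 and Srxn1 hold TGACNNNGC and that of Nqo1 does not.

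A second set was Nfe2l2, Gclc and Gsta4. Gclc and Gsta4 had r of 0.67 and rho of 0.65, Nfe2l2 and Gclc r of 0.67 and rho of 0.51, and Nfe2l2 and Gsta4 r of 0.60 and rho of 0.46, although the last pair had -0.34 within the carbon-ion controls. Gsta4 was also linked to Nqo1 of the first set, with r of 0.67, and -0.19 within the photon controls. Without the 2 libraries farthest from the median of Nfe2l2, its r with Gclc was 0.47. The catalytic and the modifier subunit of glutathione synthesis, Gclc and Gclm, belonged to different sets: their r was 0.23, with 0.51 and 0.68 in the carbon-ion controls and irradiated tumours, -0.61 in the photon controls and 0.37 after photons. Without the 2 libraries farthest from the median of Gclc, their r was 0.33. Among the photon controls, replicate 2 had the highest Gclc (188 CPM) and the lowest Gclm (55.1 CPM). Nfe2l2 itself had r of 0.17 with Srxn1, 0.27 with Txnrd1, 0.38 with Nqo1 and 0.50 with Gclm, so the sets were not sharply divided.

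Hmox1 had more negative correlations with the other members than positive ones. Its r was -0.50 with Gsta4, -0.45 with Gpx2, -0.44 with Slc7a11 and -0.44 with Gclc, and it was positive only with Srxn1 (0.45), Txnrd1 (0.21) and Gclm (0.09). With these first 4 genes the sign was negative in each of the 4 groups. Against the cell type markers, 9 of the 10 members had a positive r with the mean of the 8 epithelial markers, from 0.18 for Srxn1 to 0.59 for Gpx2, and Hmox1 had -0.19. With the macrophage, fibroblast, endothelial and adipocyte scores Hmox1 had r of 0.47, 0.54, 0.54 and 0.60, and 0.34, 0.39, 0.31 and 0.53 without the 2 libraries farthest from its median. Srxn1 shared part of this pattern, with r of 0.38 for the macrophage, 0.43 for the fibroblast and 0.43 for the adipocyte score, and 0.41, 0.42 and 0.52 without the 2 libraries farthest from the median of Srxn1. Slc7a11 had r of -0.54 with the endothelial and -0.41 with the adipocyte score. Without the 2 libraries farthest from the median of Slc7a11 these were -0.48 and -0.23. Hmox1 is known to be strongly expressed in macrophages; the data do not give its level per cell type.

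**Figure D4:**
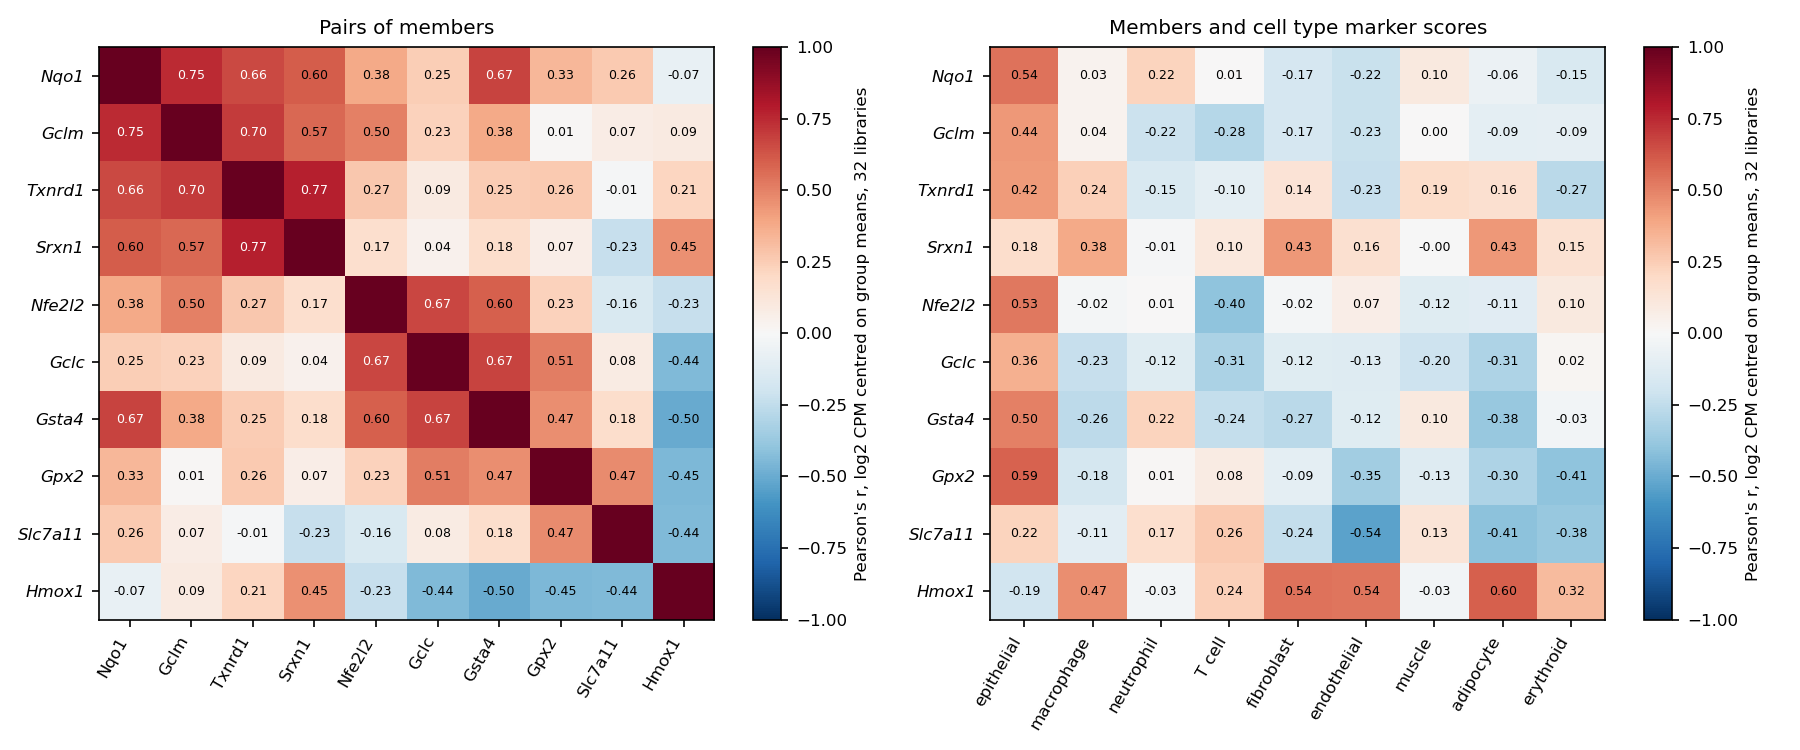
Pearson correlations across 32 libraries of log2 CPM centred on group means, between the 10 genes (left) and between each gene and the mean of 9 cell type marker lists (right); red is positive and blue negative, with values printed. Nqo1, Gclm, Txnrd1 and Srxn1 form a red square at the upper left with values of at least 0.57, and Hmox1 is blue with Gsta4, Gpx2, Slc7a11 and Gclc and pale blue with the epithelial score.

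For each member the 3 genes whose centred pattern was most like its own were taken from 11484 genes with a mean log2 CPM , over the libraries, of 2 or more, leaving out provisional and pseudogene symbols. For Gsta4 they included 2 other detoxification enzymes, Gstm1 (r = 0.94, rho = 0.90), a glutathione transferase, and Aldh3a1 (r = 0.92, rho = 0.93), an aldehyde dehydrogenase; the other was Slc22a18 (r = 0.92, rho = 0.85). For Nqo1 they were Gsta1 (r = 0.90, rho = 0.92), another glutathione transferase, Serpinb5 (r = 0.89, rho = 0.89) and Suox (r = 0.85, rho = 0.81). Txnrd1 was most like Cs, the citrate synthase (r = 0.94, rho = 0.96), and the proteasome subunits Psmd1 (r = 0.93, rho = 0.93) and Psmd2 (r = 0.93, rho = 0.91). Gclm was most like Pak1ip1 (r = 0.88, rho = 0.82), Ube2a (r = 0.88, rho = 0.88) and Txnl1, a thioredoxin-like protein (r = 0.87, rho = 0.83).

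The genes most like Gpx2 were Spdef, a factor of mucus-secreting cells (r = 0.89, rho = 0.84), Ern2 (r = 0.86, rho = 0.84) and Slc44a4 (r = 0.85, rho = 0.89). For Slc7a11 they were the gastric mucosal genes Tff1 (r = 0.68, rho = 0.71) and Gkn2 (r = 0.66, rho = 0.69), with Syt16 (r = 0.67, rho = 0.64) between them, the lowest maximum of the 10 members. Hmox1 was most like Apln, a vascular peptide (r = 0.83, rho = 0.78), the lysyl hydroxylase Plod1 (r = 0.82, rho = 0.78) and the collagen Col5a3 (r = 0.81, rho = 0.82). Nfe2l2 was most like St13 (r = 0.88, rho = 0.80) and Etfdh (r = 0.86, rho = 0.84), Gclc like Zfp623 (r = 0.84, rho = 0.84), Vill (r = 0.83, rho = 0.78) and Lratd2 (r = 0.82, rho = 0.77), and Srxn1 like Gosr2 (r = 0.85, rho = 0.85), Ywhab (r = 0.84, rho = 0.86) and Jpt2 (r = 0.84, rho = 0.84). Leaving out the 2 libraries farthest from the other gene's median left r between 0.61 and 0.93 for all of the genes named here.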

How the data were processed

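RNA of 32 tumours was extracted from tissue kept in RNAlater and made into stranded mRNA libraries, per the labels' protocols. The authors deposited 1 table of estimated counts per gene symbol; the submitters' processing notes name FastQC 0.12.0, Trimmomatic 0.32, RSEM 1.3.3 and the build mm10, and the annotation and strand setting are not given in the sources used here. Values were rounded, changing totals by at most 0.00403%, and tested in R 4.3.3 with edgeR 4.0.16: filterByExpr (minimum count 10), TMM scaling, 1 quasi-likelihood model of all 4 groups, and Benjamini-Hochberg adjustment over 20474 genes with a threshold of 0.05. Intervals (95%) use the standard error from the F statistic. CPM are TMM-scaled; the log2 CPM used a prior count of 2. Depth is given as totals per library.

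Samples were grouped by the treatment label; replicate numbers follow the order of deposition. The tests were checked on simulated data. Alternatives were RLE and upper-quartile scaling, DESeq2 1.42.0, other filters, fewer groups, M-titled libraries, the title letter as a covariate, each library left out and, chosen after seeing the data, D-titled libraries alone. The 10 members are always named; of other pathway genes those called with the smallest p (at most 6 per contrast), or else the 1 with the smallest p, and the 3 genes most like each member, of which 1 is not reported here; the 7 called between the irradiated groups are named in full, and Keap1 and Gsta2 were added after their values were seen. The members and lists were chosen with earlier results of these data known. Symbols that overlap other annotated genes (Nfe2l2, Gclm, Txnrd1, Slc7a11, Gpx2) or have a pseudogene row (Gpx2-ps1) may share reads with them.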

Additional observations from a re-analysis of the deposited data

Results flagged for a closer look

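Among 40 sets of 8 libraries (10 genes in 4 groups), the highest or lowest log2 CPM stood apart from the others by more than Dixon's 95% limit in 2, and chance alone gives about 1 in 20. The lowest photon-irradiated library for Nfe2l2, replicate 3, was at 75.4 CPM, while the next was at 116.6 CPM and the group median at 120.9 CPM. The lowest carbon-ion control for Gsta4, replicate 5, was at 47.6 CPM, with the next at 87.2 CPM and the median at 95.5 CPM.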

How the results depend on the processing

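The number of the 10 genes past the threshold was recomputed under 234 alternatives over the 6 contrasts, and it changed in 7. After photons it was 1 in place of 0, always Slc7a11, with a mean CPM of at least 1 as the filter, in M-titled libraries alone and by DESeq2. Of all genes these 3 settings called 924, 664 and 1524, beside 781 in the main fit. The number of the 10 ranged from 0 to 1 when a library was left out: it was 1 without carbon-ion control replicate 4, photon control replicate 5 or photon-irradiated replicate 5. Between the controls of both arms it ranged from 0 to 1 when a library was left out, and the 1 was Nqo1 without photon control replicate 5 (log2 fold change 0.77, adjusted p 0.0476). The median log2 fold change of all genes moved by less than 0.1 under RLE and upper-quartile scaling. The number of other pathway genes past the threshold ranged from 0 to 6 after photons, 8 to 18 between the controls, 0 to 13 between the irradiated groups, 0 to 1 for the difference and 0 to 3 for the mean of both effects, and was 0 under every alternative run after carbon ions. Over all genes the count when a library was left out ranged from 239 to 1656 after photons (781 with all libraries), 1178 to 2196 between the controls (1871), 108 to 2159 between the irradiated groups (1041), 5 to 108 for the difference (16), 65 to 397 for the mean (158) and 0 to 5 after carbon ions (0). In the same order DESeq2 called 1524, 2379, 1947, 262, 468 and 17. With no filter on low counts the counts were 431 after photons, 319 between the irradiated groups and 4 for the difference. M-titled libraries alone gave 973 between the controls, 1 for the difference and 9 for the mean. Upper-quartile scaling gave 94 and the mean CPM filter 25 for the difference, fitting only the irradiated groups gave 57 between them, and D-titled libraries alone gave 2 after carbon ions. The cause of these changes was not tested. No paired analysis was possible because the replicate numbers only follow the order of deposition. After carbon ions the standard errors were widest for Gpx2 (0.36), Hmox1 (0.32) and Nqo1 (0.25). Nqo1 had the lowest counts of the 10, and the part of depth in its error was not tested.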
